A study of Mus musculus with 14 samples.

Results

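NKX2.2 chromatin immunoprecipitation sequencing (ChIP-seq) regions nearest to genes of developmental transcription factor families were taken from a comparison of Klf4-knockdown with control alpha cells. A region belonged to the set when its nearest protein-coding gene had a symbol starting with Sox, Fox, Tead, Runx, Rfx, Gata, Mef2, Tcf, Hnf, Onecut, Hox, Meis or Pbx, or was Nfia, Nfib, Nfic or Nfix. Foxa2 and Rfx6 were left out. The rule used only positions and names, and it found 89 of the 6758 regions in the authors' deposited table, nearest to 42 genes of 12 families. No region was nearest to a Hox or Hnf gene.

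The samples came from alphaTC6, a clonal line of mouse pancreatic alpha cells, the cells that make glucagon, with wild-type genotype per the labels. All were reverse-transfected for 48 h, either with a small interfering RNA against Klf4 or with a scrambled control. The study holds 3 Klf4-knockdown and 4 scramble NKX2.2 ChIP samples, and 3 knockdown and 4 scramble input samples of chromatin without immunoprecipitation. The single table gives the authors' csaw comparison of the ChIP groups, which tests short windows along the genome and combines neighbours into regions, and it has no values per sample. Depth, replicate spread, the extent of the knockdown and the labelled cell type could therefore not be examined here, and the labels do not say whether replicates were separate cultures. The table does not name the numerator of its log2 fold change, so regions are described as listed up (positive) or down (negative), not as gain or loss upon knockdown. A region's nearest gene is a label of place, and nothing here measures whether that gene is regulated from it.

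NKX2.2 is a homeodomain protein that directs and maintains endocrine cell identity in the pancreas, and KLF4 is a zinc-finger protein that binds GC-rich elements. The families examined encode other classes of DNA-binding regulators used in organ formation, apart from genes that share only a prefix. Among the classes are HMG-box Sox proteins, forkhead Fox proteins, and TALE homeodomain Meis and Pbx proteins, which act as partners of other homeodomain factors. Several have known roles in the pancreas: Gata6 and Onecut factors in its early formation, Sox4 in endocrine differentiation, Foxo1 downstream of insulin signalling, and Foxp1 with its paralogs in the growth of alpha cells.

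Regions overlapped the RefSeq promoter window of their own gene at 4 genes, Meis1, Tcf3, Rfx1 and Gatad2a. These were 4 of the 148 promoters of all family genes (2.70%), beside 1707 of all 32851 promoters overlapped by a region (5.20%). A promoter window of any gene was overlapped by 6 of the 89 member regions (6.74%), beside 19.9% of all regions. Among the 6, a Mef2d and an Onecut3 region overlapped windows of other genes, 1700113A16Rik and Gm40716. The 4 promoters are shown because they are the only family promoters under a listed region. Each line gives the 250 bases upstream of the annotated start, 5′ to 3′ on the gene's strand (RefSeq, GRCm38.p6). Capitals mark matches to GGGNGTG, a core of KLF binding sites, on either strand. They lie at chr11:19018970-19019219 (minus strand), chr10:80433636-80433885 (minus), chr8:84066586-84066835 (plus) and chr8:69996385-69996634 (minus).
Meis1: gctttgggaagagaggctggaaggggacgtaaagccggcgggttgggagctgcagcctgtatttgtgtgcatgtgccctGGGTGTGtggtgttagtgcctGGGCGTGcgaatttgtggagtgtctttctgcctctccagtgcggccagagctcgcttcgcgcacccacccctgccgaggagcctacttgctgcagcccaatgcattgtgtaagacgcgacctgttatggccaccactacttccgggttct
Tcf3: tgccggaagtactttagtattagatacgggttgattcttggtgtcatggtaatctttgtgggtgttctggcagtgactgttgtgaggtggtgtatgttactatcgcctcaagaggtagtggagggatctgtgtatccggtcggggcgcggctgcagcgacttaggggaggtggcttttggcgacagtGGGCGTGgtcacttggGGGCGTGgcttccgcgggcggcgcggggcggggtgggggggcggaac
Rfx1: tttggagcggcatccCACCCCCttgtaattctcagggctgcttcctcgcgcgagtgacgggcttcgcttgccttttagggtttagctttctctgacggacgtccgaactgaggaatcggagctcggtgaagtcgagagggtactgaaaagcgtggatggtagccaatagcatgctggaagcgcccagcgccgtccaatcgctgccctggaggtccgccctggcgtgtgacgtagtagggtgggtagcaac
Gatad2a: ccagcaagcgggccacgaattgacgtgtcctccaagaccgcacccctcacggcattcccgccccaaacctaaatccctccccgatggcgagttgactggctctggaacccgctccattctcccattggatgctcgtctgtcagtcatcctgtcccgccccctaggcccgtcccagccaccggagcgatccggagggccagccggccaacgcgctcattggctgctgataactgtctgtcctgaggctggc

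The regions covered 160 of the 250 bases at Meis1, 85 at Tcf3, 235 at Rfx1 and all 250 at Gatad2a. The Meis1 promoter held 2 matches to GGGNGTG and the Rfx1 promoter 1, all under the region. Tcf3 held 2, and neither was under the region. Gatad2a held 0. The core of NK2-type homeodomain sites, TNAAGTG, was searched on both strands in the same stretches and matched in 0 of these 4 promoters. Over all 32851 promoters of the same length in the table, 26.1% held GGGNGTG and 10.1% held TNAAGTG. Among the 40 promoters listed for member genes, 13 (32.5%) and 6 (15.0%) did. These 40 belong to 26 of the 42 member genes. Over the 148 promoters of all family genes the shares were 33.8% and 8.11%. Over the 1707 promoters overlapped by any region they were 29.8% and 7.97%. The TNAAGTG share was thus below that of all promoters in the family and overlapped sets, and above it among member genes, with 6 of 40. The GGGNGTG share was above that of all promoters in each of these sets. The differences were not tested. A match is a string of letters, not a measured site.

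At Meis1, a TALE homeodomain factor, the promoter region on chromosome 11 from 19019001 to 19019160 was at 0.37 on the log2 scale in the authors' deposited table (csaw p = 0.217, false discovery rate, FDR, 0.744). Tcf3, which encodes an E protein of the basic helix-loop-helix class, had a value of -0.46 in the authors' deposited table (p = 0.239, FDR 0.772). Rfx1, a winged-helix factor, was at 0.11 and Gatad2a, a subunit of the NuRD corepressor complex, at -0.14 in the authors' deposited table, with p-values of 0.887 and 0.863. The values lay on both sides of 0, and the count of 4 is too small to be read against the share called over the table.

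The families differed in how many of their genes were nearest to any NKX2.2 region. Of the 166 family genes in the gene table, 42 (25.3%) had at least 1 region, beside 4542 of 21900 protein-coding genes (20.7%). All 4 nuclear factor I genes had one, as did 3 of 4 Runx-prefixed, 3 of 4 Mef2, 2 of 3 Onecut, 2 of 3 Meis and 3 of 5 Pbx-prefixed genes. Among the larger families, Sox, Fox and Tcf lay nearer the overall share, with 6 of 19, 9 of 45 and 3 of 14 genes. The counts were 2 of 9 for Rfx-prefixed, 3 of 9 for Gata-prefixed and 2 of 4 for Tead genes. At the other end, 0 of 39 Hox genes and 0 of 4 Hnf genes had a region. These counts take each gene as a unit. Whether genes of a family lie side by side, and so compete for the same regions, was not examined. These shares carry no test, and gene length moved with them, a part that was not tested. Family genes with a region had a median length of 67.1 kb and those without of 6.80 kb.

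**Figure D1:**
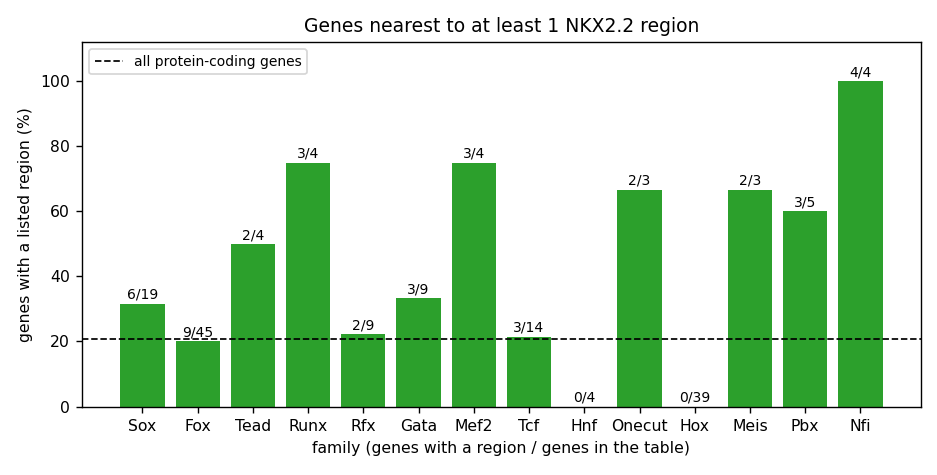
Share of the genes of each family (y axis, percent) that were nearest to at least 1 NKX2.2 region, with the counts above each bar and the share among all protein-coding genes, 20.7%, as a dashed line. The Nfi family stands at 4 of 4 genes, while Hox (0 of 39) and Hnf (0 of 4) have no region.

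Member genes often had several regions. Of the 42, 19 had a single region and 7 had 4 or more (16.7%), beside 221 of the 4542 genes with a region in the whole table (4.87%). The 7 genes, Sox5, Foxp1, Nfia, Nfib, Tcf4, Tead1 and Meis1, held 34 of the 89 regions. Sox5 led with 7, and 22 genes of the whole table had more. Most of these genes are long, which also moves with the count: Sox5 spans 953.9 kb and Foxp1 597.4 kb.

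Member regions lay farther from gene ends than the table as a whole. An end is either outer bound of the gene, not each annotated start, so these distances are not distances from promoters. The Rfx1 promoter region, for example, lay 3.17 kb from an end, and 3 of the 79 members farther than 1 kb overlapped a promoter window. An end of the nearest gene was within 1 kb of 10 of the 89 regions (11.2%), beside 26.0% of the 6726 regions on chromosomes with a gene. The median distance from the nearer end was 34.1 kb for members and 12.5 kb for all. Where non-coding genes could also be nearest, the near-end share was 18.9% of 53 member regions, beside 29.97% of all. Within the bounds of the gene lay 46 member regions (51.7%, beside 56.1%), and 20 (22.5%, beside 8.85%) lay over 100 kb outside it. The families split in this respect. All 6 Tcf, 5 Runx and 4 Rfx regions were inside their gene, while all 4 Mef2 regions, 14 of 20 Fox regions and 8 of 13 Nfi regions were outside. The farthest was a region 1143 kb from Gata3, a zinc-finger factor best known from T cells, so that its label says little beyond the absence of a nearer protein-coding gene.

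**Figure D2:**
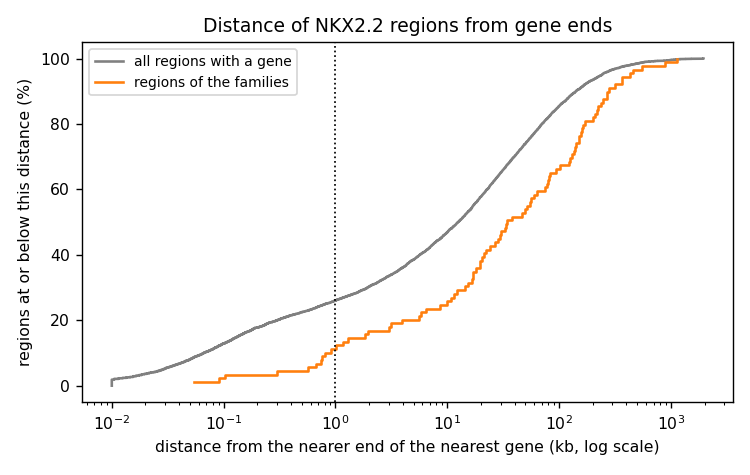
Cumulative share of regions (y axis, percent) by distance between the region's midpoint and the nearer end of its nearest gene (x axis, kb, log scale; distances under 0.01 kb are drawn at 0.01), for the 89 family regions and all 6726 regions with a gene. The curve of the families runs below that of all regions at 1 kb (11.2% against 26.0%).

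At an FDR of 0.05, csaw called 0 of the 89 member regions changed, beside 1.36% of all regions. At that share 1.21 of 89 would be called, so the count of 0 says little about these families. The best-window test also called 0. The unadjusted combined p-value was below 0.05 in 14 of the 89 (15.7%), beside 11.2% of all regions, and the best-window p-value was under 0.05 for the same 14. Of the 14, 11 were listed as up (12.4% of members, beside 7.53% of all regions) and 3 as down (3.37%, beside 3.68%). At an FDR of 0.1, 1 member passed, beside 2.31% of all regions. None of the differences named below passed an FDR of 0.05, and each is given as a value.

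The fold changes of the set were centred close to the table. The median log2 fold change of the 89 regions was 0.02, beside 0.04 over all 6758, and the members ran from -0.85 to 1.17. Positive values made up 49 of 89 (55.1%), beside 56.8% of all regions. The direction column of the authors' deposited table named 38 up, 34 down and 17 mixed. Among families with 6 or more regions, the median ran from -0.22 in 6 Gata-prefixed regions to 0.20 in 13 Nfi regions. All 5 Pbx-prefixed and all 3 Onecut regions were positive, as were 10 of 13 Nfi and 9 of 13 Sox regions. Negative values made up 13 of 20 Fox and 5 of 6 Gata-prefixed regions. These signs are those of the representative window. With the best window of each region in its place, an alternative chosen after the values were seen, 6 of 13 Sox regions were positive and their median was -0.11, against 0.17. The other counts of positive regions were then 4 of 5 Pbx-prefixed, 2 of 3 Onecut, 10 of 13 Nfi, 10 of 20 Fox and 1 of 6 Gata-prefixed. With so few regions a family, and several of them sharing a gene, these medians describe the listed regions only.

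**Figure D3:**
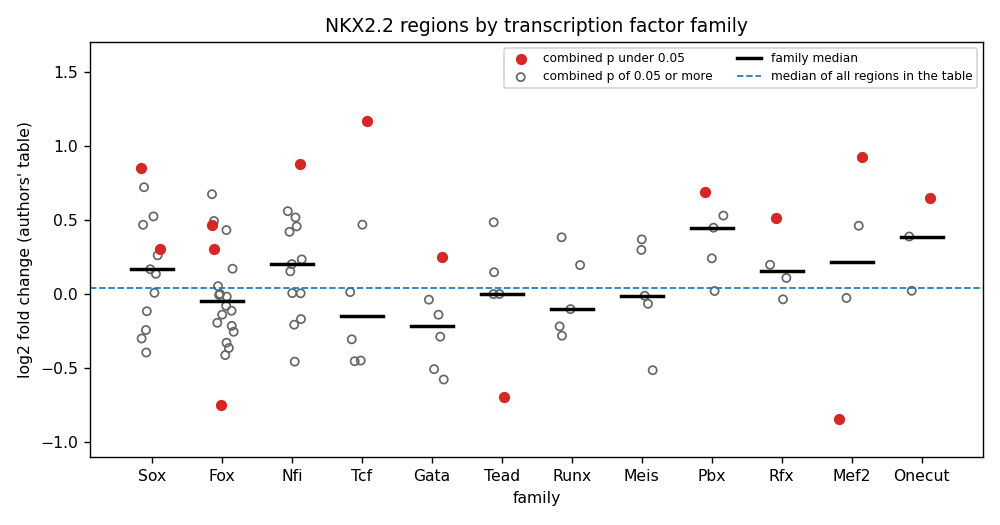
Log2 fold change of each of the 89 regions in the authors' deposited table (y axis) by family (x axis), with family medians as black bars and the median of all regions, 0.04, as a dashed line. Red points mark the 14 regions with a combined p under 0.05. Most families straddle 0, and the Pbx and Onecut regions are all above it with the representative window plotted here.

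Sox genes, which encode HMG-box factors that bend DNA, had 13 regions at 6 genes. The smallest FDR of the whole set, 0.0912, belonged to a 310 bp region 3.76 kb from Sox18, a regulator of blood and lymph vessel formation. It lies on chromosome 2 from 181675401 to 181675710, and it was at 0.30 on the log2 scale in the authors' deposited table, with p = 0.00193 and 3 of 7 windows counted as up. The next gene, Tcea2, was 4.59 kb away, so the label Sox18 rests on a margin of less than 1 kb.

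Sox5 encodes a member of the Sox group without a transactivation domain of its own. Its 7 regions had log2 fold changes of 0.26, 0.72, 0.85, -0.40, 0.14, 0.52 and 0.47 in the authors' deposited table, in chromosome order, so 6 of 7 were positive, and the fifth was at -0.49 with its best window. The region at 0.85, on chromosome 6 from 143826551 to 143826660 and 1.76 kb outside the gene, had p = 0.0184 (FDR 0.278) in the authors' deposited table, and all 3 of its windows were counted as up. Its neighbour 55.5 kb outside the gene, at 0.72, had p = 0.0508 (FDR 0.449) in the authors' deposited table. Sox6, the close paralog, had 1 region inside the gene at 0.17 (p = 0.682) in the authors' deposited table.

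The SoxC genes Sox4, Sox11 and Sox12, whose products act in progenitors and, for Sox4, in endocrine differentiation, had 4 regions without a high value. The authors' deposited table gave the 2 at Sox4 log2 fold changes of -0.30 and 0.01, the 1 at Sox11 -0.24 and the 1 at Sox12 -0.12. Their p-values were 0.659 or higher. The first Sox4 region was the widest of the 89, at 1210 bp with 6 windows. Sox12 was a single-window region 0.905 kb outside the gene.

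The forkhead genes held the most regions, 20 at 9 genes. Foxp1, a forkhead repressor, had 5 in chromosome order, with log2 fold changes of -0.02, 0.67, 0.46, 0.30 and -0.11 in the authors' deposited table. The third, on chromosome 6 from 98869701 to 98870260 and 55.1 kb outside the gene, had p = 0.00937 (FDR 0.203), and the fourth, from 99275751 to 99276410 inside the gene, had p = 0.00679 (FDR 0.168) in the authors' deposited table. With 12 and 14 windows these were the regions of most windows in the set, and 3 windows of each were counted as up. The outer pair of Foxp1 regions was close to 0.

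Foxo6, a FoxO-class factor, had 3 regions between 17.97 and 23.97 kb outside the gene. Their log2 fold changes in the authors' deposited table were -0.20, 0.17 and -0.75. The last, on chromosome 4 from 120249051 to 120249110, had p = 0.0305 (FDR 0.357) in the authors' deposited table, with both of its 2 windows counted as down, while the others were single windows. Foxo1 had 1 region, 313.3 kb from the gene, at -0.37 (p = 0.770) in the authors' deposited table.

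The remaining Fox genes had no p-value under 0.05. The 2 regions at Foxk1, 1 of them 37 bp outside the gene, were at -0.26 and -0.33 in the authors' deposited table. Foxn3 had 3 regions inside the gene, between -0.22 and 0.05, and Foxn2 had 2, at -0.01 and 0.49, in the authors' deposited table. Regions labelled Foxq1 and Foxc1 lay 220.3 and 29.6 kb from these short genes, with values of 0.43 and -0.08 in the authors' deposited table.

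Nuclear factor I proteins bind DNA as dimers and act in the maturation of many tissues. The median over their 13 regions was 0.20 on the log2 scale. Nfib had 5, all outside the gene, with values of -0.17, 0.15, 0.23, -0.46 and 0.88 in the authors' deposited table. The last, on chromosome 4 from 82636701 to 82636910 and 130.0 kb outside the gene, had p = 0.00599 (FDR 0.158) in the authors' deposited table, with 1 of 5 windows counted as up. Its next gene, Zdhhc21, was 161.8 kb away. The 5 regions at Nfia were at 0.00, 0.52, 0.42, 0.00 and -0.21 in the authors' deposited table, with the 2 higher ones inside the gene, and none had a p-value under 0.104. The 2 regions in Nfic, at 0.20 and 0.46, and the 1 in Nfix, at 0.56, were positive in the authors' deposited table, with p-values between 0.113 and 0.432.

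Among genes with the prefix Tcf, Tcf4 and Tcf3 encode E proteins, the general partners of tissue-specific basic helix-loop-helix factors, and are distinct from the HMG-box factors that act in Wnt signalling. No region was nearest to a gene of the latter kind. Tcf4 had 4 regions inside the gene, at -0.31, 0.01, 1.17 and -0.45 in the authors' deposited table. The value of 1.17 was the highest of the 89 and belonged to a region on chromosome 18 from 69517401 to 69517610, with p = 0.00609 (FDR 0.159) and 3 of 5 windows counted as up in the authors' deposited table. It stood alone at its gene, since the neighbours on either side were at 0.01 and -0.45. Tcf20, which shares only the prefix, had 1 region at 0.47 (p = 0.396) in the authors' deposited table.

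**Figure D4:**
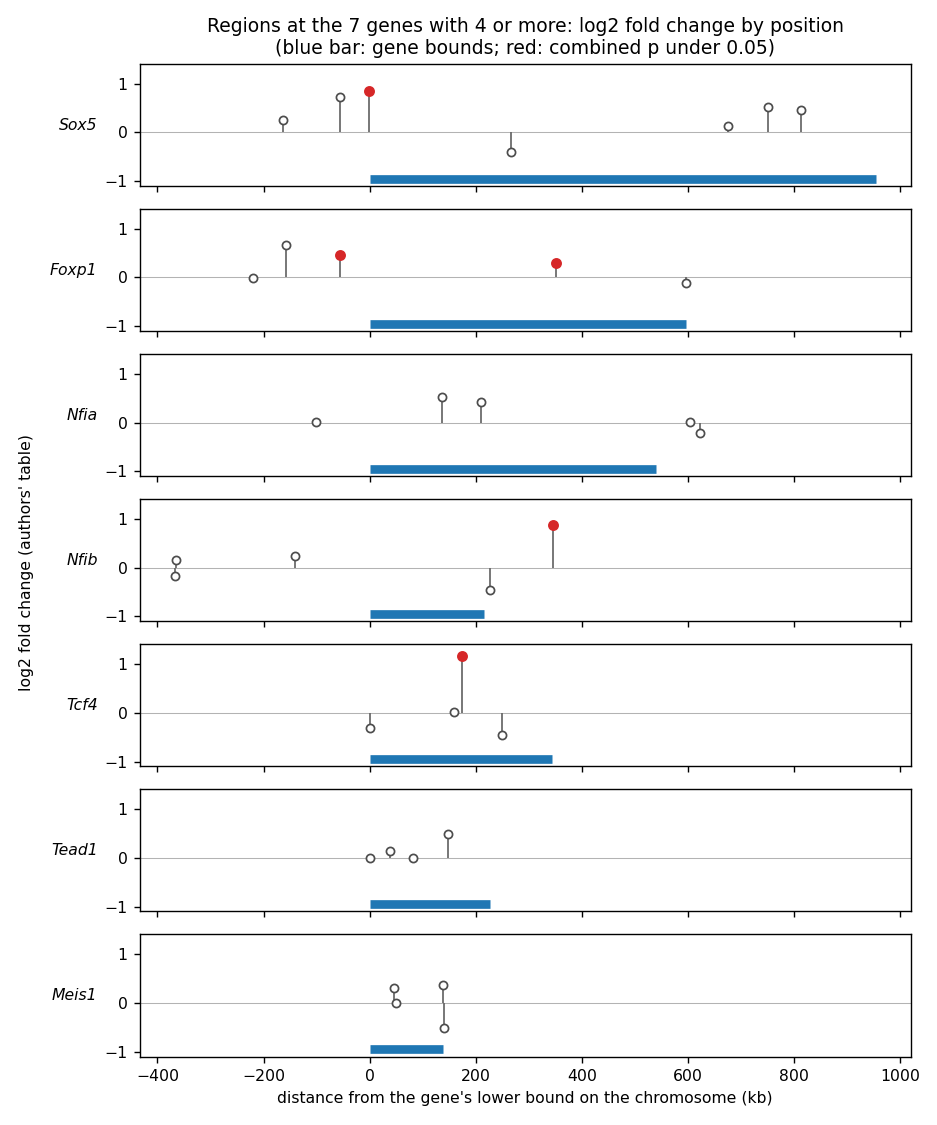
Fold change on the log2 scale (y axis, from the authors' deposited table) of each region at the 7 genes with 4 or more, by distance from the gene's lower bound on the chromosome (x axis, kb). The blue bar spans the gene and red points have a combined p under 0.05. Single regions stand out at Tcf4 (1.17) and Nfib (0.88), while 6 of 7 regions at Sox5 are positive with the representative window plotted here.

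Homeodomain genes of the TALE and Onecut classes had 11 regions in all. Onecut2, a factor of early pancreas and liver formation, had 2 inside the gene, at 0.39 and 0.65 in the authors' deposited table. The second, on chromosome 18 from 64381401 to 64381560, had p = 0.0344 (FDR 0.376) in the authors' deposited table. Onecut3 had 1 region, at 0.02, which lay 19.4 kb outside the gene and overlapped the promoter window of another gene, Gm40716. Pbx3, of the family that pairs with Meis and Hox proteins, had 2 regions, at 0.02 and 0.24 in the authors' deposited table.

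Pbxip1 encodes a protein that binds PBX factors and is not itself a homeodomain protein. Its 2 regions were at 0.53 and 0.68 in the authors' deposited table. The second, on chromosome 3 from 89452001 to 89452260, had p = 0.0262 (FDR 0.335) in the authors' deposited table and lay 1.05 kb from Pbxip1 and 2.28 kb from Pmvk. Meis1 had 4 regions, at 0.30, -0.01, 0.37 and -0.52 in the authors' deposited table, and Meis2 had 1, at -0.07. The last 2 Meis1 regions flank the gene's end 1.24 kb apart and had opposite signs, with p-values of 0.217 and 0.242 in the authors' deposited table. No Meis region had a p-value under 0.05.

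Mef2 genes encode MADS-box factors that respond to calcium signalling, and their 4 regions held 2 opposite values. A region 14.4 kb outside Mef2a, on chromosome 7 from 67390851 to 67390960, was at 0.93 with p = 0.0114 (FDR 0.225) in the authors' deposited table. A region 2.48 kb outside Mef2d, on chromosome 3 from 88138451 to 88139460, was at -0.85 with p = 0.0241 (FDR 0.321) in the authors' deposited table, the lowest value of the set. It spanned 1010 bp with only 3 windows, of which 1 was counted as down. The second Mef2d region, 5.66 kb outside the gene and overlapping the promoter window of 1700113A16Rik, was at -0.03. The 1 region at Mef2c, 426.7 kb from the gene, was at 0.46 in the authors' deposited table.

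TEAD proteins are the DNA-binding partners of the Hippo pathway coactivators YAP and TAZ. Tead4 had 1 region, on chromosome 6 from 128200551 to 128200660 and 26.5 kb outside the gene, at -0.70 with p = 0.0157 (FDR 0.261) in the authors' deposited table, and all 3 windows were counted as down. Tead1 had 4 regions inside the gene, at 0.00, 0.15, 0.00 and 0.48 in the authors' deposited table, with p-values of 0.145 or higher.

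Rfx2, a winged-helix factor of ciliogenesis, had 3 regions inside the gene within 6 kb, at -0.04, 0.20 and 0.51 in the authors' deposited table. The third, on chromosome 17 from 56814401 to 56814610, had p = 0.00721 (FDR 0.175) and 3 of 5 windows counted as up in the authors' deposited table. Among Gata-prefixed genes, the distant Gata3 region was at 0.25 with p = 0.0250 (FDR 0.327) in the authors' deposited table, and the other 2 Gata3 regions were at -0.29 and -0.04. Gata6 had 1 region 266.2 kb away, at -0.58 (p = 0.0993, FDR 0.591) in the authors' deposited table. Runx2 had 2 regions at 0.19 and 0.38, Runx3 had 1 at -0.10, and Runx1t1, a corepressor that shares only the prefix, had 2 at -0.28 and -0.22 in the authors' deposited table. The 5 Runx-prefixed regions had p-values of 0.258 or higher.

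All 14 regions with a p-value under 0.05 lay farther than 1 kb from a gene end, as did 79 of all 89 members and 606 of the 736 regions with such a p-value and a gene in the whole table (82.3%). Of the 14, 10 were outside the gene, beside 47.4% of the 736. The 4 inside a gene, at Tcf4, Foxp1, Rfx2 and Onecut2, were all listed as up, as were 509 of the 736. The median of the 10 member regions within 1 kb of an end was -0.13 on the log2 scale, 8 of 10 being negative, and that of the other 79 was 0.11. Over the whole table the corresponding medians were -0.05 and 0.10, and 1025 of the 1752 regions within 1 kb of an end were negative. The members thus had the same signs of the medians as the table, from only 10 regions near an end.

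**Figure D5:**
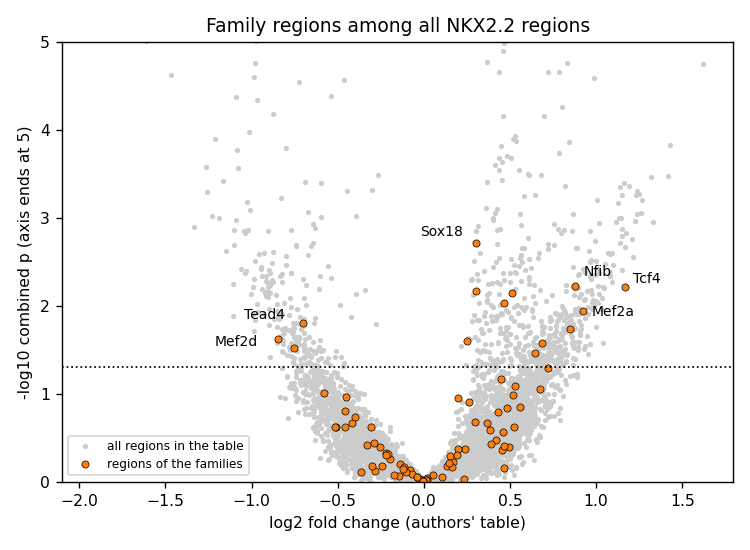
Log2 fold change (x axis) against -log10 of the combined p-value (y axis, which ends at 5 so that regions with smaller p-values are not shown) in the authors' deposited table, with all regions in grey and the 89 family regions in orange. The dotted line marks the unadjusted threshold of 0.05. Family regions lie within the cloud of all regions, and the Sox18 region is the highest of them.

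Genes whose products work with these families were examined in the same way, from a list of 30. It held the TLE corepressors, Lef1 and Ctnnb1 for the Tcf/Lef factors, the YAP, TAZ and VGLL cofactors for Tead, class IIa histone deacetylases for Mef2, Id proteins for the E proteins, and partners of Runx, Gata, TALE and Rfx factors. At least 1 region was nearest to 10 of them (33.3%, beside 20.7% of all protein-coding genes), 27 in all. None of the 27 passed an FDR of 0.05, where the share of all regions, 1.36%, would give 0.37. The p-value was below 0.05 in 5 of 27 (18.5%, beside 11.2% of all regions). All 5 were listed as up, as were 509 of the 759 such regions in the whole table. The median log2 fold change was 0.05.

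Vgll4, a TEAD-binding cofactor that competes with YAP, had the smallest p-value of the list. Its region on chromosome 6 from 114952251 to 114952560, inside the gene, was at 0.40 with p = 0.00105 (FDR 0.0650) in the authors' deposited table. Hdac4, a class IIa deacetylase that binds MEF2 factors, had 8 regions. Of these, 2 lay 76.2 and 93.8 kb outside the gene, at 0.37 and 0.96 with p-values of 0.00905 and 0.00316 (FDR 0.200 and 0.118) in the authors' deposited table. Hdac7 had a region inside the gene at 0.65 (p = 0.0341, FDR 0.374), and the corepressor gene Tle4 one at 0.69 (p = 0.0169, FDR 0.270), in the authors' deposited table. The 6 regions nearest to Id1, Id2, Id3 and Id4 had p-values of 0.203 or higher.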

How the data were processed

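NKX2.2 ChIP libraries of Klf4-knockdown and scramble alphaTC6 cells were compared by the authors with csaw, per the series' design text. The part of the input libraries in this comparison could not be told from the headers. FastQC, Bowtie2, MACS2 and build mm10 are named in the submitters' processing notes, with no role or version. Per the file headers, the deposited table gives a combined and a best-window p-value per region, each with an FDR, and for 1 representative window a log2 fold change; the normalization, filters, covariates and numerator are not given in the sources used here. The deposited FDR equals a Benjamini-Hochberg adjustment over all 6758 regions.

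The nearest gene was sought among 21900 protein-coding genes of the RefSeq table for GRCm38.p6, with distance 0 where they overlap and ties to the closer gene end; 32 regions lay on sequences without such a gene. Promoter windows, listed for 26 of the 42 genes, came from RefSeq, same build. Exons and introns were not distinguished. No test was fitted here, since no values per library were available, and this replaced the planned count test. Shares and medians are set beside those of all regions, without a test. Named regions were those with a p-value under 0.05, the smallest p-value and the most regions of each family, and the widest regions; the other members are given by their values, except some genes that are not reported here by name. The members and lists were chosen with earlier results of these data known. Gene assignment was tested on simulated regions inside genes with no overlapping neighbour, so distances outside genes and ties were not covered. Adjustment was tested on simulated p-values in which the changed regions lay far below the rest. Alternatives covered the gene set, distance, symbols, window number, width, threshold and best window. The tools were matplotlib 3.10.9, scipy 1.17.1, pandas 2.3.3 and numpy 2.4.6 under Python 3.11.15.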

Additional observations from a re-analysis of the deposited data

How the results depend on the processing

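No member region passed an FDR of 0.05 under any of the alternative gene assignments, filters and p-values tried, or at an FDR of 0.01. With the threshold at 0.1 the count was 1, the region near Sox18. The 14 regions with a p-value under 0.05 became 8 of 56 when regions farther than 10 kb from the gene were left out, and 10 of 53 when non-coding genes could also be nearest; the other alternatives gave 12 to 14. The 10 regions within 1 kb of a gene end became 4 with a limit of 500 bp and 16 with 3 kb, by construction, and 7 without the 4 genes that share only a prefix. With non-coding genes they were 10 of 53, or 18.9% in place of 11.2%, while the share of all regions went from 26.0% to 29.97%. The median log2 fold change of 0.02 ranged up to 0.17, with non-coding genes and 53 regions. With best windows it was 0.14, beside 0.15 over all regions. That gene set moved 36 of the 89 regions to another label, so family labels depend on it. No paired analysis was possible because no column belongs to a sample. Leaving out replicates, another normalization and a low-count filter were not run for the same reason. Since depth is unknown, a region short of the threshold cannot be read as one without a difference.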

Other observations

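Close neighbouring regions of the same family gene did not share a sign more often than not. Of 8 adjacent pairs with at most 5 kb between them, at Nfic, Meis1, Rfx2, Nfib and Foxo6, 2 had log2 fold changes of the same sign in the authors' deposited table, beside 183 of 345 such pairs in the whole table (53.0%). At Foxo6 a value of 0.17 lay 1.44 kb from one of -0.75, and at Meis1 0.37 lay 1.24 kb from -0.52. Other signs rest on small values: a Meis1 region at -0.01 was at 0.19 with its best window. The pairs were not counted with best windows. Among adjacent pairs farther apart, 22 of 39 at family genes and 54.6% of 1839 in the whole table shared a sign. These pairs were looked at after the values were seen, and no test was made.

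On chromosome 6, 4 of the 13 family regions had a p-value under 0.05, at Foxp1, Sox5 and Tead4, beside 10.7% of the 646 regions on that chromosome. Of the 4, 3 were listed as up, as were 509 of the 759 regions with such a p-value in the whole table. The Foxp1 regions share a gene. This chromosome was picked after the values were seen, out of 15 with a member region, and no test was made. It does not stand out, since chromosome 3 had a higher share of such member regions, from fewer regions.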
